A study of Homo sapiens with 6 samples.

Results

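The comparison set RPE-1 cells given the ATR inhibitor AZ20 beside cells given its solvent DMSO, both collected 4 h after release from a thymidine arrest, in late S phase. It rests on 6 of the 17 libraries analysed, 3 of 4h_ATRi and 3 of 4h_DMSO, matched by the letters A, B and C of their column names, which were taken to mark the repeated experiments. Every one of the 6 came from cells held for 24 h in 2 mM thymidine and then washed. Cells of 4h_ATRi had 2 µM AZ20 for the last 3 h and those of 4h_DMSO had the solvent for the same time. RPE-1 cells derive from human retinal pigment epithelium and carry the catalytic subunit of telomerase, so each value describes a single established line. The design text of the series asks which genes ATR controls through transcription.

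ATR is a kinase that is activated at stalled or slow replication forks. Through its effector kinase CHK1 it restrains CDK1 and the cyclins that drive mitosis while DNA is still being copied. Genes for mitosis are transcribed from late S phase onward by B-MYB and FOXM1, which work with the MuvB complex at a short promoter element called the CHR, while E2F factors drive the genes of DNA replication earlier in the cycle. RNA was measured here in whole cultures, so more cells at a later cell cycle stage and more RNA per cell cannot be told apart.

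Library totals at 4 h ran from 1926531 to 2282302 counts. Experiment B stood apart from A and C on the first principal component, at 43.2 and 51.7 in its 4 h libraries against -28.2 to -12.2, and it holds a library of each condition. Of 13 retinal pigment epithelium markers, BEST1 had 23341 to 33505 counts per library. It lies opposite FTH1, the ferritin heavy chain gene, so whether these counts came from BEST1 or FTH1 is not known. PMEL had 557 to 779 and SERPINF1 22 to 44. RLBP1 and DCT were at 0, RPE65 had 0 to 2, TTR 0 to 1, and TYR, TYRP1, MITF, OTX2, LRAT and RDH5 between 0 and 16, so several defining markers of that epithelium were absent or nearly so. Among epithelial markers KRT8 had 5435 to 10096, KRT18 440 to 725, CDH2 75 to 125, KRT7 13 to 35 and CDH1 0 to 2, while KRT19 and EPCAM were at 0. The mesenchymal markers VIM and FN1 had 2093 to 2618 and 3411 to 5631. Of the leukocyte markers named here LYZ had 8 to 25, CD68 6 to 17 and PTPRC 0 to 4, with CD3E at 0. HBB, the beta-globin gene of red cells placed on the same list, was at 0. Of the endothelial markers KDR had 0 to 1 and CDH5 and VWF 0. Enough counts for testing were found for 5 retinal pigment epithelium, 4 epithelial, 6 mesenchymal, 2 leukocyte, 3 neuron and glia and 0 endothelial markers. Among these edgeR called 0, with 1 lower at an unadjusted p under 0.05, and DESeq2 called 0. A level in CPM is the count of a feature relative to its library's TMM-scaled total, and a feature is a gene ID of the count table.

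With ATR inhibited in late S phase, some genes of mitosis rose, 6 of 27 for mitotic entry, 6 of 28 for the kinetochore, 12 of 34 for the spindle and 14 of 39 for anaphase and cytokinesis, while CCNB1, CDK1, AURKA and FOXM1 did not pass the test. These lists were set with earlier results of these data known, so the counts are descriptions. They also share members, such as TPX2, KIF23 and BORA, so the counts do not stand for separate genes. Of 38 replication genes 0 were called by edgeR or DESeq2 (1 higher and 6 lower with an unadjusted p under 0.05). Of the 18 features opposite to them 3 fell and 1 rose, against 0.983% and 1.64% of all features with a partner on the opposite strand. Of 13510 features tested, 162 were higher (1.2%) and 75 lower (0.555%) in 4h_ATRi at an adjusted p under 0.05 (edgeR's quasi-likelihood test with the experiment as a block, Benjamini-Hochberg). The rises had a median of 0.84 on the log2 scale and the falls a median of -0.52. All 162 rises had the same direction in 3 of 3 experiments and in 132 the 3 inhibitor libraries lay above the 3 DMSO libraries, a pattern seen in 5.5% of all features. Among the falls, 74 of 75 had the same direction in 3 of 3 experiments and 52 did not overlap, against 4.8% of all features below in this way.

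The calls lean on the pairing by experiment and on single libraries, the falls more than the rises. Without the block 39 features were higher (0.289%) and 3 lower (0.0222%), all of them also called with it, and at an unadjusted p under 0.05 with the block 730 were higher (5.4%) and 645 lower (4.77%). When 1 of the 6 libraries or 1 experiment was left out, the rises numbered 74 to 152 and the falls 7 to 43, with the fewest of both without experiment A; without experiment B they were 84 and 38. In all 9 such fits 49 of the 162 rises and 2 of the 75 falls were called, and 0 called features turned direction. Below, a call is named as held where it stood in all 9.

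**Figure D1:**
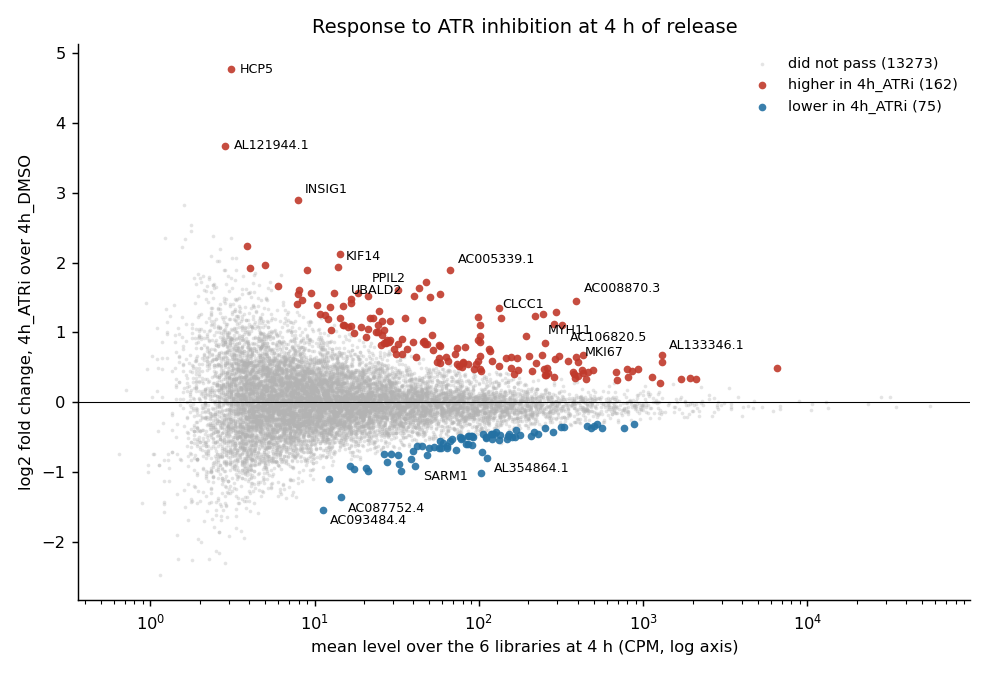
Each point is 1 of 13510 features, with its mean level over the 6 libraries at 4 h on the x axis (CPM, log scale) and its log2 fold change, 4h_ATRi over 4h_DMSO, on the y axis. The 162 called higher are red and the 75 called lower are blue; the falls lie closer to 0 than the rises, and the highest points, HCP5 and AL121944.1, have means under 5 CPM.

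Coding genes were read together with the features whose exons overlap theirs on the opposite strand, because the strand setting of the counting is not given. The 2 partners are counted as separate features and can change in unlike ways. Without the strand setting, a call on 1 partner does not show which of the 2 genes changed. Overlapped features held 76.8% of the counts of all tested features at 4 h, and they held 115 of the 162 rises (1.64% of 7017 overlapped features) and 69 of the 75 falls (0.983%). Of 6277 features with no such partner 44 rose (0.701%) and 6 fell (0.0956%). In 3328 pairs with both features tested, the opposite feature had more counts in 2203. It had more in 1495 of 1962 pairs of a coding gene with a feature of another type. In pairs of 2 coding genes, ordered by gene ID, the number was 708 of 1366. Whether the strand setting gave this split was not tested. Both features of a pair rose in 19 pairs, the coding gene alone in 33 and the opposite feature alone in 51. In 0 pairs did both fall, 19 fell on the coding gene alone and 52 on the opposite feature alone. In 0 pairs were the features called in opposite directions by edgeR. At an unadjusted p under 0.05, 52 pairs were higher on both features, 24 lower on both and 14 in opposite directions. Of the 174 pairs with a call, the called feature was the one with more counts in 146, and both features had the same sign in 126.

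**Figure D2:**
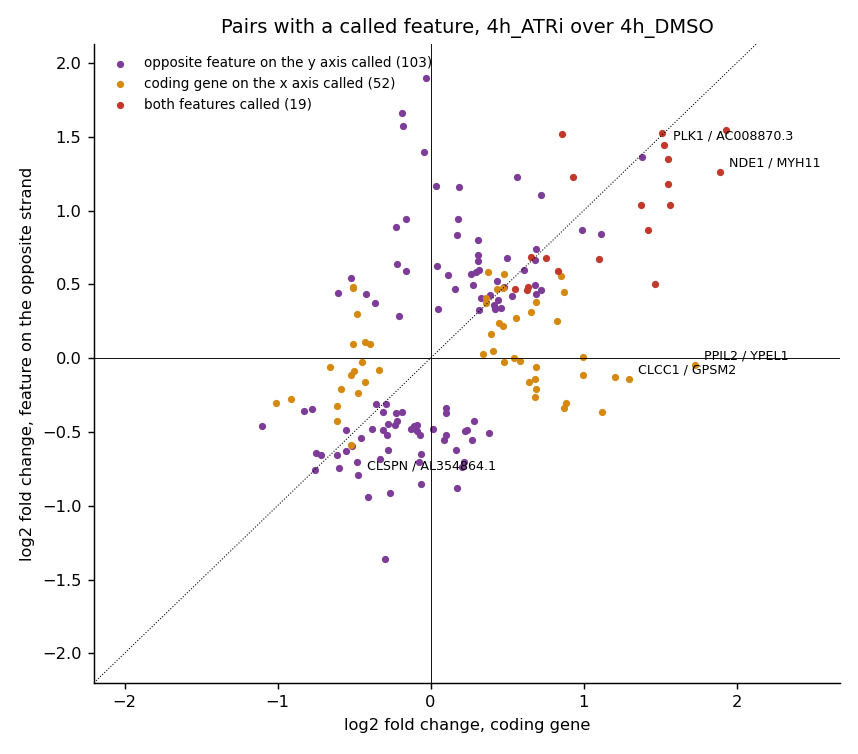
Each point is 1 of the 174 pairs with a called feature, with the log2 fold change of the coding gene on the x axis and of the feature on its opposite strand on the y axis; a pair of 2 coding genes is drawn once. Red points, 19 pairs, had both features called, and the dotted line marks equal change. Purple and orange points, called on 1 strand, spread to both sides of 0 on the other.

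Summing each coding gene with its opposite features gave 10377 loci, of which 186 were higher (1.79%) and 101 lower (0.973%) by the same test; 2 overlapping coding genes share most of a sum and each count as a locus. Without the block the sums gave 50 and 3. The fewest calls with a library or experiment left out were 92 higher and 9 lower, both without experiment A.

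**Figure D3:**
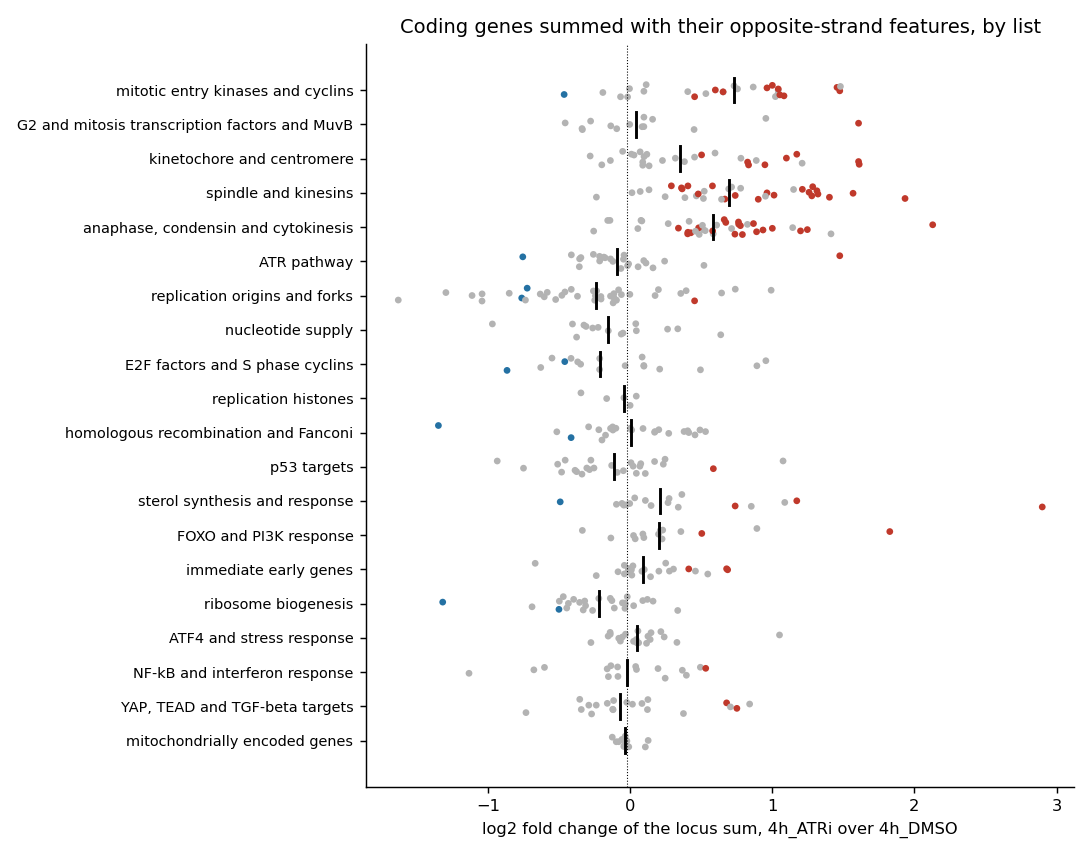
Each point is the summed locus of 1 coding gene, with its log2 fold change, 4h_ATRi over 4h_DMSO, on the x axis and its gene list on the y axis; red points were called higher and blue points lower, black bars are list medians and the dotted line is the median of all loci, -0.02. The 4 lists of mitotic entry, kinetochore, spindle and anaphase genes have medians of 0.35 to 0.73.

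The regulators of mitotic entry rose in part. Of 27 members of that list 6 rose and 0 fell by edgeR, against 1.2% and 0.555% of all features (1 lower at an unadjusted p under 0.05, 0 by DESeq2). The median log2 change was 0.65, beside -0.01 over all features. Either on the gene or on its opposite strand 10 of the 27 rose, a rule for which no share over all genes was counted. Those 10 were the kinase PLK1, its activator BORA, the Aurora A activator TPX2, cyclin A2 (CCNA2), cyclin F (CCNF), WEE1, CDC25B, TACC3, HMMR and BUB1B. As locus sums 10 of 27 rose and 1 fell, against 1.79% and 0.973% of all loci. In 13 of the 27 genes the inhibitor libraries all lay above the DMSO libraries, against 5.5% of all features.

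PLK1, a kinase that helps to switch on CDK1 and to build the spindle, rose on all 3 features of its locus. On AC008870.3, the feature opposite to it, there were 277, 185 and 175 CPM in 4h_DMSO A, B and C and 632, 610 and 471 CPM in 4h_ATRi A, B and C (log2 change 1.45 ± 0.11 SE, adjusted p = 4.37e-20). The PLK1 feature itself had 10.5, 12.9 and 9.35 CPM in 4h_DMSO and 30.5, 38.3 and 25.6 CPM in 4h_ATRi (1.52 ± 0.27, adjusted p = 1.89e-05). ERN2, a further feature opposite to PLK1, had 27.0, 25.3 and 25.6 CPM against 84.8, 81.7 and 56.5 CPM (1.51 ± 0.18, adjusted p = 2.15e-10). On each of the 3 features every inhibitor library exceeded every DMSO library, experiment C had the lowest of the inhibitor levels, and the call held. The sum of the 3 rose by 1.46 ± 0.11.

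BORA and cyclin F, which act around PLK1 and CDK1, rose on the opposite strand. DIS3, the exosome nuclease gene opposite BORA, had 238, 150 and 156 CPM in 4h_DMSO and 438, 429 and 306 CPM in 4h_ATRi (1.12 ± 0.11, adjusted p = 4.41e-14), while BORA had 18.8 to 28.9 against 16 to 22.8 CPM (-0.37 ± 0.23, adjusted p = 0.645). AC106820.5, opposite CCNF, had 257, 188 and 174 CPM against 485, 453 and 381 CPM (1.10 ± 0.10, adjusted p = 1.05e-16), and CCNF had 13.8 to 15 against 21 to 25.1 CPM (0.72 ± 0.26, adjusted p = 0.183). Groups did not overlap on DIS3, AC106820.5 or CCNF, and both calls held. Cyclin A2, the cyclin of S phase and early mitosis, showed an unlike pair. EXOSC9 opposite to it had 419, 183 and 332 CPM against 512, 404 and 484 CPM (0.64 ± 0.11, adjusted p = 1.88e-05), with overlap, since 4h_DMSO A lay above 4h_ATRi B, and CCNA2 had 95.1 to 135 against 95.8 to 118 CPM (-0.16 ± 0.13). The call on EXOSC9 held with libraries left out but ended without the block (adjusted p = 0.986).

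WEE1, the kinase that inhibits CDK1, has no opposite feature. It had 9.98, 6.94 and 9.35 CPM in 4h_DMSO and 24.6, 23.3 and 25.2 CPM in 4h_ATRi (1.47 ± 0.29, adjusted p = 2.06e-04), with the inhibitor libraries close together and far above the others. TPX2 had 32.4, 32.7 and 39.9 against 75.2, 65.7 and 63.1 CPM (0.96 ± 0.17, adjusted p = 3.21e-05), with no overlap, and its call ended without experiment A (adjusted p = 0.0536). CDC25B, the phosphatase that activates CDK1, had 10.5, 15.4 and 14.3 against 22.3, 48.4 and 16.1 CPM (1.05 ± 0.26, adjusted p = 0.00828), so experiment B carried much of its rise. The call of CDC25B ended in 5 of 9 leave-out fits, with an adjusted p of up to 0.593 without experiment B, and ended without the block (0.364). HMMR-AS1, opposite the spindle gene HMMR, rose by 0.60 ± 0.13 (adjusted p = 8.21e-04), and its call ended without experiment A (0.117) and without the block (0.216).

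**Figure D4:**
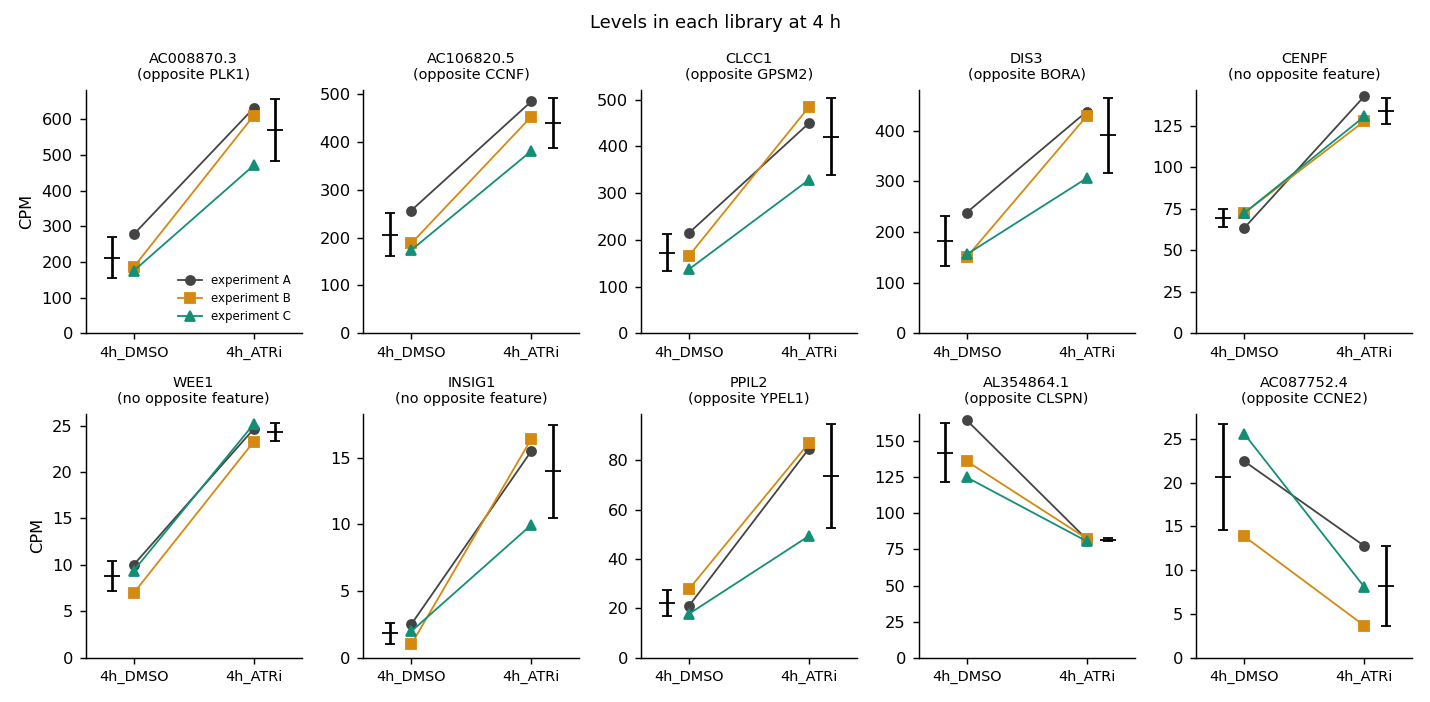
CPM of 10 features in each library at 4 h, with lines joining the libraries of experiments A, B and C and black bars giving the mean ± SD of each group (n = 3). AC008870.3 lay at 175 to 277 CPM with DMSO and 471 to 632 with the inhibitor, and AL354864.1 at 125 to 165 and 80.7 to 82.6; in all 10 panels the 2 groups do not overlap.

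Several central mitotic regulators did not pass. Cyclin B1 (CCNB1), the partner of CDK1, had 3.45 to 5.94 CPM in 4h_DMSO and 8.66 to 10.9 CPM in 4h_ATRi (1.02 ± 0.40, adjusted p = 0.251). CDK1 itself had 5.91 to 9.48 against 10.9 to 14.6 CPM (0.73 ± 0.36, adjusted p = 0.463), and AURKA, the Aurora A kinase, had 3.45 to 5.49 against 7.75 to 10 CPM (1.04 ± 0.41, adjusted p = 0.262). The inhibitor libraries of these 3 genes all lay above the DMSO libraries, and their levels were low in both groups. CDC25C changed by 0.23 ± 0.22, and FAM53C opposite to it by -0.18 ± 0.34. PKMYT1, the membrane kinase that inhibits CDK1, had -0.58 ± 0.18 on the gene (adjusted p = 0.129), and its locus sum fell, from 253 to 367 CPM in 4h_DMSO to 169 to 270 CPM in 4h_ATRi with overlap (-0.47 ± 0.11, adjusted p = 0.00846).

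Transcription factors of the mitotic program gave 1 call. Of 12 tested members of a list of these factors and MuvB subunits 1 rose and 0 fell, against 1.2% and 0.555% of all features. At an unadjusted p under 0.05 there were 1 and 1, by DESeq2 0 and 0, and the median was 0.06. The 1 that rose was CENPA, the centromeric histone placed on the list as a target of the complex (1.61 ± 0.41, adjusted p = 0.0115), whose call ended in 6 of 9 leave-out fits, at most at 0.245 without 4h_DMSO B, and without the block (0.134). FOXM1 had 32.4, 39.6 and 44.8 CPM in 4h_DMSO and 50.2, 40.6 and 54.1 CPM in 4h_ATRi (0.32 ± 0.18, adjusted p = 0.587). ITFG2, opposite FOXM1 and with far more counts, had 1034 to 1453 against 1203 to 1498 CPM (0.15 ± 0.09, adjusted p = 0.57). Neither FOXM1 nor ITFG2 separated the groups.

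Promoters of the genes at called loci were searched for the elements these factors use. The sequences below are the 250 bases before the RefSeq gene start (GRCh38.p14, read in the direction of the gene). PLK1, CCNF, BORA and GPSM2 are shown as 4 picked examples from the 186 loci called higher. The CHR (TTTGAA or TTCGAA) and the NF-Y element (CCAAT, or ATTGG on the other strand) are in capitals. PLK1 lies on the plus strand at chr16:23678639-23678888, CCNF on plus at chr16:2429197-2429446, BORA on plus at chr13:72727673-72727922 and GPSM2 on plus at chr1:108876735-108876984.
PLK1: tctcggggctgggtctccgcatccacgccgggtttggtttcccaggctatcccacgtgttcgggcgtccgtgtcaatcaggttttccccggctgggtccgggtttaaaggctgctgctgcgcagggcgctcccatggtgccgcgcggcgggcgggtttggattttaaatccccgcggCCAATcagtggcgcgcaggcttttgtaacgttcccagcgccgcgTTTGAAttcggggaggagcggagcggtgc
CCNF: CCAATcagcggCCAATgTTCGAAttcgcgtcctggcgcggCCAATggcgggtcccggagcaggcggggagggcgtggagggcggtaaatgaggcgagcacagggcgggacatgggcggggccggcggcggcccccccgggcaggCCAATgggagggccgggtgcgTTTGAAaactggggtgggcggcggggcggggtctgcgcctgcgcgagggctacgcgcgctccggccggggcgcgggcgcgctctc
BORA: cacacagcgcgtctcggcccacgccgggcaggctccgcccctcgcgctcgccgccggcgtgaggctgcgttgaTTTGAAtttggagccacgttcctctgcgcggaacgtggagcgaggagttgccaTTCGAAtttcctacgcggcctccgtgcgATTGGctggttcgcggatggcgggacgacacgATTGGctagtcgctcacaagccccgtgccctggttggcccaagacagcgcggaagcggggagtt
GPSM2: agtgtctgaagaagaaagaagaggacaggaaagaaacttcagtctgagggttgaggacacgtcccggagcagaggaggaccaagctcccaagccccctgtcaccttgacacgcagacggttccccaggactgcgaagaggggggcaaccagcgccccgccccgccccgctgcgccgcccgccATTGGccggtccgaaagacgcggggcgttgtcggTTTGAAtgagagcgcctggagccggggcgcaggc
Each of the 4 holds both elements, whereas 43 of 143 promoters at loci called higher did in the wider window used below. In PLK1 a CHR stands at bases -29 to -24 from the start and in GPSM2 at -34 to -29, while in CCNF the copies are at -233 to -228 and -85 to -80 and in BORA at -177 to -172 and -124 to -119.

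Over all called loci the same letters were counted in windows from 250 bases before to 50 after the start, on both strands. The CHR letters were in 52 of 143 promoters (36.4%) of loci called higher, in 8 of 82 (9.76%) of loci called lower and in 969 of 8417 (11.5%) of all loci tested. The NF-Y letters were in 63.6%, 29.3% and 36.2% of the same sets, and both elements together in 30.1%, 3.66% and 4.78%. With only the coding genes that were themselves called higher, CHR letters were in 27 of 79 promoters (34.2%), beside 11.4% of all coding genes tested. The E2F letters (TTTGGCGC, TTTCCCGC or TTTCGCGC) were in 4.2% of promoters at loci called higher, 7.32% at loci called lower and 4.67% at all loci, and the FOXO letters (GTAAACA) in 5.59%, 1.22% and 2.25%. These are matches of letters, described without a test, and overlapping coding genes bring 2 promoters for 1 sum.

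Kinetochore genes rose in part. Of 28 members of the kinetochore and centromere list 6 rose and 0 fell by edgeR, against 1.2% and 0.555% of all features. At an unadjusted p under 0.05 there were 11 and 0, and by DESeq2 4 and 0. The median was 0.47. In 10 of 28 the inhibitor libraries all lay above the DMSO libraries, against 5.5% of all features. CENPF, a large protein of the outer kinetochore, had 63.4, 72.3 and 72.4 CPM in 4h_DMSO and 143, 128 and 131 CPM in 4h_ATRi (0.95 ± 0.14, adjusted p = 9.02e-08). CENPE, the kinetochore motor, had 22.5, 7.43 and 17.7 against 60.6, 49.3 and 34.7 CPM (1.61 ± 0.25, adjusted p = 4.17e-06). Both sets of libraries were apart and both calls held. SPC24 of the NDC80 complex had 64.9, 53 and 59.6 against 162, 123 and 131 CPM (1.23 ± 0.14, adjusted p = 1.41e-12), also apart and held. INCENP, the scaffold of the Aurora B complex, rose by 0.83 ± 0.17 (adjusted p = 3.68e-04), and its call ended without experiment B (0.08). SGO1-AS1, opposite shugoshin (SGO1), rose by 0.50 ± 0.12 (adjusted p = 0.00771), a call that ended in 6 of 9 leave-out fits, at most at 0.3 without experiment A, and without the block (0.492).

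Spindle genes and kinesins held more calls, on both strands. Of 34 tested members 12 rose and 0 fell, against 1.2% and 0.555% of all features. At an unadjusted p under 0.05 there were 23 and 0, by DESeq2 10 and 0, and the median was 0.73. Of 22 opposite features 12 rose and 0 fell, against 1.64% and 0.983% of all overlapped features. On the gene or opposite to it 18 of 35 members rose, a rule with no share over all genes counted. As locus sums 20 of 35 rose and 0 fell, against 1.79% and 0.973% of all loci. In 21 of the 34 the inhibitor libraries all lay above the DMSO libraries, against 5.5% of all features. KIF14, a kinesin of cytokinesis with no opposite feature, had 5.49, 5.45 and 6.40 CPM in 4h_DMSO and 26.4, 19.2 and 20.9 CPM in 4h_ATRi (1.93 ± 0.34, adjusted p = 2.11e-05), and its call held. CLCC1, the chloride channel gene opposite the spindle-orientation gene GPSM2, had 215, 165 and 137 against 450, 484 and 328 CPM (1.30 ± 0.11, adjusted p = 4.37e-20). GPSM2 had 237 to 327 against 233 to 279 CPM (-0.14 ± 0.10, adjusted p = 0.725), so the groups were fully apart on one strand and overlapped on the other. MYH11, the smooth muscle myosin gene opposite the dynein regulator NDE1, had 132, 180 and 114 against 287, 502 and 251 CPM (1.26 ± 0.11, adjusted p = 2.20e-17), with experiment B the highest in both groups. NDE1 had 1.5, 3.47 and 6.40 against 16, 13.2 and 13.3 CPM (1.89 ± 0.39, adjusted p = 7.34e-04), and its call ended without 4h_DMSO A (0.0709) or experiment A (0.253).

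Both features opposite SAPCD2, a regulator of spindle orientation, rose and held. AL807752.3 had 80.4, 80.3 and 63.5 against 224, 196 and 154 CPM (1.35 ± 0.13, adjusted p = 5.99e-17), and AL807752.2 changed by 1.18 ± 0.18. SAPCD2 itself, at 2.48 to 4.92 against 8.54 to 16.4 CPM, rose by 1.55 ± 0.38 (adjusted p = 0.00771), a call that ended in 4 of 9 leave-out fits, at most at 0.453 without experiment B, and without the block (0.11). PRC1-AS1, opposite the midzone bundling protein PRC1, had 821, 583 and 618 against 1010, 937 and 848 CPM (0.48 ± 0.09, adjusted p = 7.51e-05), a narrow gap without overlap that held but did not pass without the block (0.59). CKAP2 and FAM83D, spindle proteins with no opposite feature, rose by 1.31 ± 0.25 and 1.57 ± 0.32, and both calls ended without experiment A (adjusted p = 0.0663 and 0.0533). KIF20A, a midzone kinesin, rose by 1.04 ± 0.24 (adjusted p = 0.00304). The features opposite to it rose too, CDC23, also a member of the anaphase list, by 1.56 ± 0.28 and BRD8 by 1.37 ± 0.31. Of these 3 calls that of CDC23 held, that of BRD8 ended without 4h_ATRi A (0.0964) or experiment A (0.24), and that of KIF20A ended in 4 of 9 leave-out fits, at most at 0.18 without 4h_DMSO B, and without the block (0.128).

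Features opposite NUMA1, which anchors spindle poles, rose by small steps at high levels. AP002490.1 had 1709, 1297 and 1480 CPM against 2167, 1657 and 1828 CPM (0.33 ± 0.08, adjusted p = 0.00757), overlapping since 4h_DMSO A lay above 4h_ATRi B, and IL18BP rose by 0.41 ± 0.10. The call of AP002490.1 ended without experiment A (0.226) or B (0.0784), that of IL18BP without 4h_DMSO C (0.0656), 4h_ATRi A (0.172) or experiment A (0.435), and both ended without the block (0.958 and 0.796). NUMA1 changed by 0.05 ± 0.12.

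Genes of anaphase, chromosome condensation and cytokinesis rose in part as well. Of 39 tested members 14 rose and 0 fell, against 1.2% and 0.555% of all features. At an unadjusted p under 0.05 there were 22 and 2, and by DESeq2 13 and 0. The median was 0.56. On the gene or opposite to it 21 rose, again with no share over all genes counted. As locus sums 20 of 39 rose and 0 fell, against 1.79% and 0.973% of all loci. In 19 members the inhibitor libraries all lay above the DMSO libraries, against 5.5% of all features. ARL6IP1, a protein that shapes endoplasmic reticulum membranes, is on this list, which was set with earlier results of these data known. It had 6.49, 2.97 and 6.40 CPM in 4h_DMSO and 33.7, 23.3 and 13.3 CPM in 4h_ATRi (2.13 ± 0.34, adjusted p = 2.09e-06). UBE2S, which extends ubiquitin chains for the anaphase-promoting complex, had 94.8, 84.2 and 78.8 against 149, 160 and 130 CPM (0.76 ± 0.13, adjusted p = 7.00e-06). MKI67, the Ki-67 protein of the mitotic chromosome surface, had 318, 327 and 317 against 449, 529 and 463 CPM (0.58 ± 0.10, adjusted p = 7.90e-06). The 3 genes have no opposite feature, their groups were apart and their calls held, though MKI67 did not pass without the block (0.138).

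Opposite other members of the list, GNB3 (opposite CDCA3, a trigger of WEE1 turnover) had 102, 74.3 and 73.8 against 196, 228 and 150 CPM (1.21 ± 0.14, adjusted p = 9.72e-11), while CDCA3 had 63.0 to 81.7 against 51.3 to 90.3 CPM. AL138789.1, opposite the mitotic gene DEPDC1, had 182, 117 and 97.5 against 336, 324 and 254 CPM (1.23 ± 0.12, adjusted p = 3.13e-14). Both showed full separation and held. Calls also held for TROAP-AS1 opposite TROAP (0.87 ± 0.14), MFSD12 opposite the anaphase activator FZR1 (0.68 ± 0.11) and the citron kinase gene CIT (0.83 ± 0.18). FZR1 itself was not called. MFSD12 also lies opposite HMG20B, which rose by 0.76 ± 0.20 (adjusted p = 0.0177) and was called in 2 of 9 leave-out fits. LCORL, opposite the condensin gene NCAPG, rose by 0.43 ± 0.09 (adjusted p = 0.00155), and its call ended without 4h_DMSO B (0.104), 4h_ATRi B (0.0613) or experiment B (0.297), and without the block (0.744). MATCAP2, opposite anillin (ANLN), rose by 0.46 ± 0.10, and its call ended without experiment A (0.0587) and without the block (0.621).

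The pathway of ATR itself gave few calls. Of 24 members 1 rose, WEE1, and 1 fell, RAD1, a clamp subunit that helps to activate ATR, and the median was -0.04. Over all features 1.2% rose and 0.555% fell. CLSPN, claspin, which carries the signal from ATR to CHK1, was lower on its opposite strand. AL354864.1, opposite CLSPN, had 165, 136 and 125 CPM in 4h_DMSO and 82.1, 82.6 and 80.7 CPM in 4h_ATRi (-0.79 ± 0.13, adjusted p = 4.91e-06), with the inhibitor libraries nearly equal and below all the others, and its call held. CLSPN had 13.9 to 18.7 against 8.66 to 14.2 CPM (-0.47 ± 0.29, adjusted p = 0.63), and the sum fell by 0.76 ± 0.12 on the log2 scale (adjusted p = 5.07e-06). RAD1, opposite the ribosome assembly gene BRIX1, had 139, 63.4 and 126 against 80.7, 69.3 and 77.4 CPM (-0.50 ± 0.14, adjusted p = 0.0354), with B higher under the inhibitor and overlap between the groups. The call of RAD1 ended in 6 of 9 leave-out fits, at most at 0.777 without experiment A, and without the block (0.744). ATR had 3.94 to 6.49 against 4.11 to 6.84 CPM (-0.02 ± 0.50) and CHEK1, the CHK1 gene, had 1.49 to 6.99 against 1.82 to 5.70 CPM (-0.22 ± 0.51), both at low counts.

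The promoter of CLSPN is given for comparison with those of the loci that rose (250 bases before the RefSeq start, chr1:35769979-35770228, minus strand, GRCh38.p14, NF-Y letters in capitals).
CLSPN: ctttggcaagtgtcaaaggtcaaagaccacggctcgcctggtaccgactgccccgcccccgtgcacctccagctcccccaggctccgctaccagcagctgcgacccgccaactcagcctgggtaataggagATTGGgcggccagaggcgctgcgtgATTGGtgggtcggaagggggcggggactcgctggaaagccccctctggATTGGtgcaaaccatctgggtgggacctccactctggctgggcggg
It holds 3 NF-Y matches, no CHR letters, and an E2F match that runs over the start site, from base -5 to 3, and is therefore not in capitals.

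Replication genes had 0 calls on the genes themselves and a few falls opposite to them. Of 38 tested members of the origins and forks list 0 rose and 0 fell by edgeR and by DESeq2, with a median of -0.29. At an unadjusted p under 0.05 there were 1 higher and 6 lower. Of their 18 opposite features 3 fell and 1 rose, against 0.983% and 1.64% of all overlapped features. AC009118.2, opposite the helicase subunit GINS3, had 78.9, 47.6 and 55.6 against 38.8, 32.4 and 35.1 CPM (-0.76 ± 0.18, adjusted p = 0.00397), apart in all libraries. HSD17B6, opposite the primase gene PRIM1, had 54.9, 33.7 and 32.5 against 33.3, 17.3 and 21.4 CPM (-0.75 ± 0.20, adjusted p = 0.0246), and AC011498.3, opposite the chromatin assembly gene CHAF1A, fell by 0.66 ± 0.16 on the log2 scale (adjusted p = 0.00665). None of these 3 held. AC009118.2 lost its call without 4h_DMSO A (0.132), 4h_ATRi A (0.0954) or experiment A (0.423), HSD17B6 in 7 of 9 fits (at most 0.467, without 4h_DMSO A) and AC011498.3 in 5 of 9 (at most 0.502, without experiment A), and all 3 ended without the block (0.333, 0.534 and 0.25). KIF7, opposite the origin-firing factor TICRR, went the other way, with 152, 132 and 116 against 223, 210 and 188 CPM (0.64 ± 0.12, adjusted p = 6.89e-05); it held but did not pass without the block (0.131), and TICRR had -0.22 ± 0.18. CDC6, the origin licensing factor, had 5.49, 0.991 and 8.86 against 2.28, 1.82 and 0.475 CPM (-1.63 ± 0.71, adjusted p = 0.347), with overlap.

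Among E2F factors and S phase cyclins 0 of 15 tested genes were called by edgeR or DESeq2 (1 and 1 at an unadjusted p under 0.05), with a median of -0.21. Of their 12 opposite features 3 fell and 0 rose, against 0.983% and 1.64% of all overlapped features. Among the 3 that fell, 2 lie opposite cyclin E2 (CCNE2), a driver of S phase entry. INTS8 had 197, 69.9 and 151 CPM in 4h_DMSO and 75.7, 48.4 and 75.9 CPM in 4h_ATRi (-1.01 ± 0.23, adjusted p = 0.0362), lower in every experiment but overlapping since B was low in both groups. AC087752.4 had 22.5, 13.9 and 25.6 against 12.8, 3.65 and 8.07 CPM (-1.36 ± 0.29, adjusted p = 0.00123), without overlap. CCNE2 had 36.2 to 44.4 against 26.9 to 34.7 CPM (-0.30 ± 0.19, adjusted p = 0.647), and the sum of the locus fell by 0.87 ± 0.14 on the log2 scale (adjusted p = 5.67e-05). The call of INTS8 ended in 6 of 9 leave-out fits, at most at 0.388 without experiment C, that of AC087752.4 without 4h_ATRi C (0.0736) or experiment C (0.0804), and both without the block (0.944 and 0.796). VIL1, opposite USP37, fell by 0.46 ± 0.12 on the log2 scale, a call that ended in 5 of 9 fits (at most 0.626, without experiment A) and without the block (0.475). E2F1 had 4.46 to 6.40 against 2.28 to 5.22 CPM (-0.37 ± 0.50).

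Other genes of S phase and DNA repair gave few calls. For the lists in this paragraph edgeR and DESeq2 called 0 genes. Nucleotide supply had 0 of 15 called (1 lower at an unadjusted p under 0.05, median -0.06), with RRM2, the small subunit of ribonucleotide reductase, at 30.2 to 43.9 against 27.8 to 28.7 CPM (-0.31 ± 0.21, adjusted p = 0.691), and replication histones had 0 of 5 (0 at an unadjusted p under 0.05, median -0.03). Homologous recombination and Fanconi genes had 0 of 22 called (1 higher and 3 lower unadjusted, median 0.09), with falls on LRRC41 opposite RAD54L (-0.48 ± 0.11) and KLC1 opposite XRCC3 (-0.43 ± 0.11). LRRC41 lost its call without 4h_DMSO B (0.0959), 4h_ATRi C (0.0957) or experiment A (0.253), KLC1 in 5 of 9 fits (at most 0.523, without experiment A), and both without the block (0.375 and 0.604). RBBP8, the resection factor CtIP, had 12.5, 13.4 and 7.38 against 4.56, 4.56 and 3.80 CPM (-1.35 ± 0.40); it missed the threshold among features (adjusted p = 0.0537) and passed among loci (0.0402).

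Outside the cell cycle, the sterol list held the largest rise among called features with a mean of at least 5 CPM. INSIG1, which retains the sterol sensor SCAP in the endoplasmic reticulum and is itself a target of SREBP, had 2.50, 0.991 and 1.97 CPM in 4h_DMSO and 15.5, 16.4 and 9.97 CPM in 4h_ATRi (2.90 ± 0.46, adjusted p = 1.85e-06), with no overlap, and its call held. AC114947.2, opposite HMGCS1, an enzyme of cholesterol synthesis, had 104, 57.5 and 102 against 175, 96.3 and 169 CPM (0.74 ± 0.13, adjusted p = 2.80e-05), higher in each experiment although B under the inhibitor lay below A and C with DMSO. SREBF1, which encodes the transcription factor SREBP1, went down, from 83.4, 70.8 and 62.5 to 50.2, 52.5 and 41.3 CPM (-0.59 ± 0.16, adjusted p = 0.0204), without overlap. Of 17 tested members 2 rose and 1 fell, against 1.2% and 0.555% of all features, and the median was 0.25. The call of AC114947.2 held but did not pass without the block (0.944). That of SREBF1 ended in 7 of 9 leave-out fits, at most at 0.49 without experiment A, and without the block (0.319).

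The promoter of INSIG1 (250 bases before the RefSeq start, chr7:155297628-155297877, plus strand, GRCh38.p14) is given because its rise stood outside the mitotic lists, with the NF-Y letters in capitals.
INSIG1: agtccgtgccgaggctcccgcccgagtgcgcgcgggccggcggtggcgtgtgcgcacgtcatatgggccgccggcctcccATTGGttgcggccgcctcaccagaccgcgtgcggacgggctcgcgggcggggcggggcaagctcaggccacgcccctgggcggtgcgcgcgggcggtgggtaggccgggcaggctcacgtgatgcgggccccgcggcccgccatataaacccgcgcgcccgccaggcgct
It holds 1 NF-Y match. Neither the CHR letters nor the sterol element letters searched (TCACCCCAC) are in this window, and the latter were in 0 of 143 promoters at loci called higher and in 0.475% of those at all loci.

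FOXO and PI3K response genes had 0 of 13 called by edgeR or DESeq2 (2 higher at an unadjusted p under 0.05) and a median of 0.21. PPIL2, a cyclophilin gene opposite the list member YPEL1, had 21, 27.7 and 17.7 CPM in 4h_DMSO and 84.8, 87.1 and 49.4 CPM in 4h_ATRi (1.73 ± 0.19, adjusted p = 6.35e-13), apart and held, while YPEL1 had 77.8 to 109 against 79.8 to 99.9 CPM (-0.05 ± 0.14). CCNG2, an atypical cyclin induced by FOXO factors, had 2.00, 3.47 and 2.46 against 14.6, 4.56 and 10.4 CPM (1.83 ± 0.54), passing among loci (adjusted p = 0.0402) and missing the threshold among features (0.0527).

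Among immediate early genes 2 of 21 rose, against 1.2% of all features, with a median of 0.08. Both rose on the opposite strand too. AL133346.1, opposite the matricellular growth factor gene CCN2, had 1018, 888 and 1085 CPM against 1735, 1285 and 1811 CPM (0.68 ± 0.09, adjusted p = 4.97e-08), and BTG1-DT, opposite the antiproliferative gene BTG1, had 394, 299 and 306 against 594, 498 and 495 CPM (0.67 ± 0.10, adjusted p = 9.02e-08). Both were apart and held, but neither passed without the block (0.127 and 0.128). On the genes, CCN2 rose by 0.65 ± 0.16 and BTG1 by 1.10 ± 0.30, calls that ended in 6 and 7 of 9 leave-out fits, at most at 0.59 and 0.508 without experiment A, and without the block (0.35 and 0.302). CCN2 was also counted among 20 YAP, TEAD and TGF-beta targets, of which 2 rose, with a median of -0.05; the other was TWIST1.

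The remaining lists had medians of -0.13 to -0.01, beside -0.01 over all features, of which 1.2% rose and 0.555% fell. Of 25 p53 targets 1 rose (median -0.05), the lesion-bypass polymerase gene POLH (1.47 ± 0.39, adjusted p = 0.0199), opposite GTPBP2, which was also called (0.50 ± 0.15, adjusted p = 0.05, just under the threshold). The call of POLH ended in 5 of 9 leave-out fits (at most 0.423, without experiment A) and that of GTPBP2 in 8 of 9 (at most 0.322, without 4h_DMSO C), both also without the block (0.399 and 0.615). CDKN1A, the CDK inhibitor p21, had 28.0, 74.3 and 48.7 against 27.4, 50.2 and 30.9 CPM (-0.46 ± 0.20, adjusted p = 0.363) and MDM2 had 26.5 to 45.6 against 37.0 to 46.5 CPM (0.23 ± 0.19), with AC025423.4 opposite to it at -0.08 ± 0.11. Ribosome biogenesis genes had 0 of 27 called by edgeR or DESeq2 (6 lower at an unadjusted p under 0.05), a median of -0.13 and a fall on AL355802.2 opposite POLR1C (-0.64 ± 0.17, adjusted p = 0.0184), which ended in 5 of 9 fits (at most 0.537, without 4h_DMSO A) and without the block (0.362). ATF4 and stress response genes had 0 of 21 called (median -0.01) and mitochondrially encoded genes 0 of 15 (median -0.03), with 0 in both at an unadjusted p under 0.05 or by DESeq2.

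Of the 12 leading rises at a mean of at least 5 CPM, those not yet described are AC005339.1, UBALD2, MTURN, KANSL1L-AS1 and PRANCR. AC005339.1, opposite TNFAIP8L1, had 28.9, 28.2 and 27.1 CPM in 4h_DMSO and 123, 121 and 73.6 CPM in 4h_ATRi (1.90 ± 0.17, adjusted p = 1.99e-17), while TNFAIP8L1 had -0.03 ± 0.31. UBALD2 had 15.5, 24.8 and 23.1 against 66.6, 68.4 and 61.2 CPM (1.63 ± 0.20, adjusted p = 1.54e-10). Both showed wide gaps and held. MTURN (1.96 ± 0.53), KANSL1L-AS1 (1.66 ± 0.45) and PRANCR (1.57 ± 0.39) lost their calls in 7, 7 and 6 of 9 leave-out fits, at most at 0.338 without experiment C, 0.402 without experiment B and 0.115 without experiment A, and without the block (0.197, 0.148 and 0.297).

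Of the 12 leading falls none held in all 9 leave-out fits. AC093484.4 had 24.5, 13.4 and 12.3 CPM in 4h_DMSO and 6.38, 3.19 and 7.59 CPM in 4h_ATRi (-1.54 ± 0.33, adjusted p = 0.00126), apart, and its call ended without 4h_DMSO A (0.138), 4h_ATRi B (0.0503) or experiment A (0.299). SARM1, an NAD-cleaving enzyme gene opposite SLC46A1, had 49.9, 62.4 and 48.2 against 27.8, 25.5 and 32.8 CPM (-0.91 ± 0.18, adjusted p = 2.92e-04), also apart, and ended without 4h_DMSO B (0.0836) or experiment B (0.0944). LEF1-AS1, opposite LEF1, a factor of the Wnt pathway, had 48.4, 41.6 and 42.3 against 34.7, 12.3 and 21.4 CPM (-0.98 ± 0.21), and ended without 4h_ATRi B (0.125) or experiment B (0.194) and without the block (0.181). The others, beside the 2 features opposite CCNE2, were ZNF787, EFHD2, NDUFB10, AC096636.1, NEB opposite RIF1, AP003068.3 and TMEM179B, with changes from -1.10 to -0.85. They ended in 4 to 9 of the 9 fits, with an adjusted p of up to 0.841 for NEB without experiment A, and all 7 ended without the block. CEBPZOS, named after its values were seen as the other fall that held, had 151, 116 and 122 against 93.0, 67.1 and 78.3 CPM (-0.71 ± 0.13, adjusted p = 1.02e-04) and did not pass without the block (0.138).

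The response at 4 h was compared with that at 6 h, after 5 h of inhibitor, in 3 libraries of 6h_DMSO and 2 of 6h_ATRi (A and B; C is not analysed here). At 6 h 55 features were higher (0.407%) and 17 lower (0.126%). The difference between the responses passed for 6 features (0.0444% of 13510), all with the higher value at 4 h, and for 0 in the other direction (edgeR; at an unadjusted p under 0.05 there were 417 and 367, and DESeq2 called 3 and 0). Of the 6, 4 lie opposite mitotic genes. AC106820.5, opposite CCNF, rose by 1.10 ± 0.10 at 4 h and had 0.08 ± 0.12 at 6 h, and DIS3, opposite BORA, rose by 1.12 ± 0.11 and had 0.00 ± 0.12 (adjusted p of the difference = 7.58e-06 for both). AC008870.3, opposite PLK1, rose by 1.45 ± 0.11 and by 0.60 ± 0.11 (0.00172), and CLCC1, opposite GPSM2, by 1.30 ± 0.11 and 0.58 ± 0.11 (0.0219). AC005339.1 rose by 1.90 ± 0.17 and 0.64 ± 0.16 (0.00172), and TWIST1, a transcription factor of mesenchymal cells, rose by 0.85 ± 0.24 at 4 h and had -0.93 ± 0.30 at 6 h (0.0219). Without the block 0 of the 6 passed, and with a library or experiment left out 2 to 8 features passed, the fewest without 6h_DMSO A, experiment A or experiment B. TWIST1 lost its call at 4 h in 7 of 9 leave-out fits, at most at 0.626 without 4h_ATRi B.

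Levels over the 6 conditions place these features. AC106820.5 averaged 83.0 CPM in arrested cells, 206 ± 44.3 in 4h_DMSO, 440 ± 53 in 4h_ATRi and 364 ± 59.2 in 6h_DMSO (SD, n = 3 each). DIS3 averaged 81.1, 181 ± 49.3, 391 ± 73.5 and 331 ± 66.6 CPM, and AC008870.3 113, 212 ± 56.3, 571 ± 87.3 and 555 ± 142 CPM. For each of the 3 the libraries of 4h_ATRi overlapped those of 6h_DMSO; that difference was not tested. In 6h_ATRi AC106820.5 and DIS3 averaged 397 and 349 CPM, and AC008870.3 873 CPM (n = 2).

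**Figure D5:**
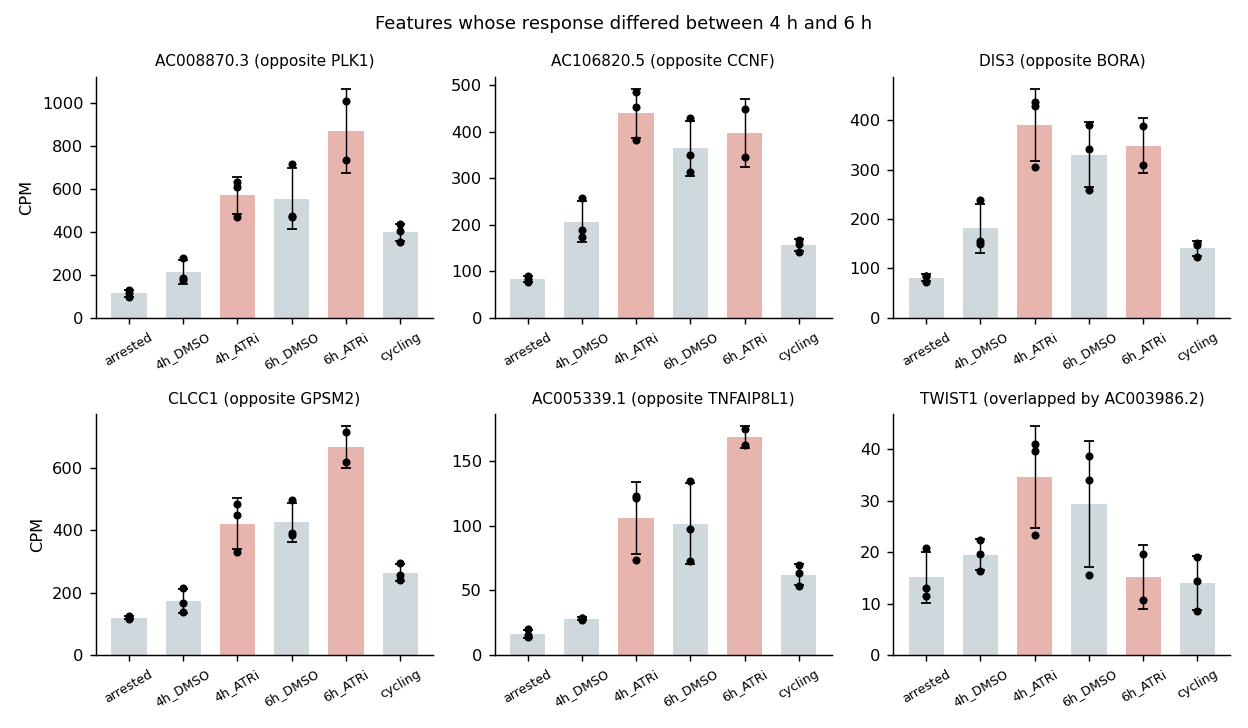
CPM of the 6 features whose response differed between 4 h and 6 h, by condition; bars are means, points are libraries and error bars are SD (n = 3, and n = 2 for 6h_ATRi), with inhibitor conditions in red. AC106820.5 and DIS3 differ between DMSO and inhibitor at 4 h and overlap at 6 h, while AC008870.3, CLCC1 and AC005339.1 are higher with the inhibitor at both times.

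The authors' deposited table lists an adjusted p for 7429 IDs in this comparison, of which 57 were higher and 4 lower under 0.05. All 61 were called here in the same direction. For AC005339.1 the authors' deposited table gives a log2 change of 1.68 (adjusted p = 1.52e-10) and for KIF14 1.34 (adjusted p = 0.00298).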

How the data were processed

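The authors deposited whole-number counts of reads per gene ID for 17 libraries, and a table of log2 fold changes with adjusted p-values. Per the submitters' processing notes TopHat, HTSeq, DESeq2 and GRCh37 were used; no version is named, and how the counting treated strand is not given in the sources used here. The authors' deposited log2 fold changes and p-values are quoted only where named as such. Of 60252 gene IDs, 55528 were matched to a symbol and 55951 were in GENCODE v29 (GRCh38), which gave names and exon overlaps on opposite strands.

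Counts were tested in R 4.3.3 with edgeR 4.0.16 and limma 3.58.1: features kept by filterByExpr (counts of at least 10, summing to at least 15), TMM scaling, the robust quasi-likelihood fit over all 17 libraries with the experiment letter as a block (9 residual degrees of freedom), and Benjamini-Hochberg adjustment over the 13510 features kept, with a threshold of 0.05. CPM were counts scaled by the TMM library size, SE are those of the log2 change, and locus sums took the same scaling. Totals in the 6 libraries ran from 1926531 to 2282302 counts, and genes with low counts have wide errors. The letters were used as pairs because the series describes repeated experiments, each with every condition; deviations from the group means correlated with r of 0.308, 0.534 and 0.22 for same letters and of -0.386 to 0.161 for different letters. Where cultures were not separate, p-values measure only the spread between these samples. On simulated counts for this comparison, over 13510 features, 94% of 100 features changed 2-fold and 100% of 100 changed 3-fold were recovered. There were 10 false calls among 204. The changed features were drawn only from those with higher mean levels, and recovery was not broken down by level. These shares therefore cannot be carried over to genes with low counts, such as CCNB1, CDK1 and AURKA. The same holds for called genes at low levels, among them INSIG1, KIF14, WEE1, ARL6IP1 and CENPA.

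Alternatives were no block, only the 4 h libraries, RLE factors, other filters, DESeq2 1.42.0, and leaving out each library or experiment. Named features were the 12 largest rises and falls among called features with a mean of at least 5 CPM and 1 direction in 3 of 3 experiments, a fixed panel of cell cycle genes, up to 4 called members of each of 20 lists, and the features opposite to these. The genes, lists and tests were chosen with earlier results of these data known. Values of a few members of the lists are not reported here.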

Additional observations from a re-analysis of the deposited data

Results flagged for a closer look

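The change with the inhibitor at 4 h differed from that at 6 h for 6 features, by edgeR's interaction test with Benjamini-Hochberg adjustment over all features. The difference, 4 h minus 6 h on the log2 scale, was 1.12 for DIS3 (adjusted p = 7.58e-06) and 1.02 for AC106820.5 (7.58e-06), which lie opposite BORA and CCNF. It was 0.84 for AC008870.3 (0.00172), opposite PLK1, and 0.72 for CLCC1 (0.0219), opposite GPSM2. For AC005339.1 it was 1.25 (0.00172). TWIST1 had a difference of 1.78 (0.0219), with opposite signs at the 2 times. All 6 rest on 2 libraries of 6h_ATRi.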

How the results depend on the processing

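Without the replicate block, that is, without pairing by experiment, 39 features were higher and 3 lower at 4 h, locus sums gave 50 and 3, and the difference from 6 h gave 0 higher. With 1 library or experiment left out, features called higher numbered 74 to 152 and lower 7 to 43, locus sums 92 to 170 and 9 to 77, and features that differed from 6 h 2 to 8 higher and 0 to 2 lower. DESeq2 gave 3 features that were higher at 4 h than at 6 h, and the fit with no filter on low counts gave 1 that was lower. The cause was not tested. The counts at 4 h stayed within 1.5 times under RLE factors (166 and 70 features), a minimum count of 20 (179 and 78), no filter (141 and 54), DESeq2 (134 and 53) and a fit of only the 4 h libraries with 2 residual degrees of freedom (199 and 107). Of 86 called features among the 143 named, 53 lost their call without the block, 17 with DESeq2, 9 with no filter, 3 in the 4 h fit and 1 each with RLE factors and a minimum count of 20, and 0 changed direction. Counts were low for some genes, among them CCNB1, CDK1, ATR and CHEK1, whose misses do not show that they were unchanged. Whether depth or the handling of strand in the counting lowered these counts was not tested, so they need not reflect low RNA.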

Other observations

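Further loci rose at 4 h that belong to no list above; they were chosen after their values were seen, with edgeR's quasi-likelihood test and Benjamini-Hochberg adjustment as in the report. All 4 features opposite SUN2, which links the nuclear envelope to the cytoskeleton, were called higher: GTPBP1 by 0.66 ± 0.10 (adjusted p = 5.26e-07), AL021707.3 by 0.80 ± 0.16, AL021707.1 by 0.66 ± 0.13 and AL021707.5 by 0.70 ± 0.15. SUN2 itself had 0.31 ± 0.14 (adjusted p = 0.403). GTPBP1 was called in 9 of 9 fits with a library or experiment left out, and the other 3 in 8 of 9, with the losses without experiment B (0.0695, AL021707.3), without 4h_DMSO C (0.0616, AL021707.1) and without experiment A (0.165, AL021707.5). Without the block GTPBP1 passed (0.0396) and those 3 did not (0.109, 0.134 and 0.11).

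COG5, a Golgi transport gene opposite the transcription factor gene HBP1, had 142, 137 and 117 CPM in 4h_DMSO A, B and C and 308, 217 and 244 CPM in 4h_ATRi (0.95 ± 0.11, adjusted p = 5.83e-11), while HBP1 had -0.16 ± 0.14. CEP44, a centriole gene opposite FBXO8, rose by 1.52 ± 0.21 (adjusted p = 2.97e-08). The calls of COG5 and CEP44 held in 9 of 9 leave-out fits and passed without the block (0.00267 and 8.47e-04). FBXO8 rose by 0.86 ± 0.23 (adjusted p = 0.0204), called in 3 of 9 leave-out fits, at most at 0.456 without experiment A, and not without the block (0.263). The linker histone gene H1-10 and H1-10-AS1 opposite to it rose by 0.63 ± 0.12 and 0.48 ± 0.09, both in 9 of 9 leave-out fits and neither without the block (0.0553 and 0.534).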
